A study of Mus musculus with 4 samples.

Results

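Tight junction genes were examined in the epidermis of mice that lack the calcium sensors STIM1 and STIM2 in keratin 14-expressing epithelium. The set holds 9 genes, chosen by symbol from the 56493 genes of the deposited count table, and all 9 were listed. They are the claudins Cldn1, Cldn4, Cldn8, Cldn12 and Cldn23, the occludin gene Ocln, the zonula occludens genes Tjp1 and Tjp3, and F11r, which encodes the junctional adhesion molecule JAM-A. The study compared 2 libraries from conditional knockout mice (cKO), whose floxed Stim1 and Stim2 alleles are recombined by Cre under the keratin 14 promoter, with 2 libraries from mice with the floxed alleles (Stim1/2fl/fl, called control here). The keratin 14 promoter is active in basal keratinocytes, whose progeny keep the deletion, while immune and dermal cells are not targeted. The age, sex and strain of the mice are not given in the labels. RNA came from the epidermal sheet of shaved dorsal skin, so that a change in the number of cells of a type and a change in RNA per cell cannot be told apart. The labels do not say whether the 2 libraries of a group came from separate mice, so the p-values measure only the spread between these libraries.

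Tight junctions seal the space between neighbouring cells. In the epidermis they lie in the granular layer, under the cornified layer, where they limit the passage of water and solutes. Claudins are membrane proteins that form the sealing strands, and Cldn1 is required for the water barrier of newborn mouse skin. Occludin is a further strand protein, JAM-A is an adhesion molecule of the immunoglobulin family, and the zonula occludens proteins are scaffolds that tie the strands to actin. Store-operated calcium entry, the process that STIM proteins start when the calcium store of the endoplasmic reticulum empties, is one route by which calcium reaches keratinocytes, and calcium drives their junction assembly and differentiation.

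The libraries were shallow, with 118858 counts in cKO replicate 2, 200293 in control replicate 1, 282190 in cKO replicate 1 and 322426 in control replicate 2. Values are given as CPM, counts scaled to a library of 1000000, with library sizes set by TMM scaling over the 4243 genes that passed a count filter. In cKO replicate 2, 1 count is worth about 11.2 CPM, and a count of 0 allows up to 33.7 CPM; in the other libraries it allows 9.58 to 16.0 CPM. Such limits and all counting intervals cover counting error only. The targeted genes had 23 and 6 counts (Stim1) and 0 and 1 counts (Stim2) in cKO replicates 1 and 2, against 24 and 62 (Stim1) and 3 and 18 (Stim2) in control replicates 1 and 2. Neither passed the test (edgeR quasi-likelihood test, adjusted p = 0.671 for Stim1 and 0.627 for Stim2, which was added to the fit). The epidermal label was checked against keratinocyte markers: all 7 basal markers had counts, with a summed level of 4928 to 9041 CPM per library. The summed level of 6 endothelial markers was at most 6.39 CPM, with Cdh5, Kdr, Emcn and Tie1 at 0 in every library. Skeletal muscle markers, however, summed to 44.5 to 1425 CPM per library and fibroblast markers to 36.4 to 607 CPM. The check thus does not show a sheet free of other tissue.

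The tight junction genes gave few counts. The 9 genes together had 83 and 32 counts in cKO replicates 1 and 2 and 87 and 145 in control replicates 1 and 2. Only Cldn1, Cldn4 and F11r passed the count filter and were tested among all genes. The other 6 (Cldn8, Cldn12, Cldn23, Ocln, Tjp1 and Tjp3) had between 1 and 27 counts over the 4 libraries; all but Cldn8 are also given from a second fit in which they were added to the filtered genes. None of the 9 shared at least 150 bases at 95% identity or more with a GENCODE transcript of another gene in a blastn search. Exons of Tjp3 shared 40 bases with Apba3 on the opposite strand, and the other 8 genes shared none.

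The promoters of the 3 tested genes are shown because these genes carry the comparison; no binding or chromatin data were analysed here. Each is the RefSeq window of 250 bases before to 50 bases after the annotated start on GRCm38.p6, written 5′ to 3′ on the gene's strand, while gene positions below are those of the deposited table (GRCm39 per the submitters' processing notes). Capitals mark matches, on either strand, to the AP-1 motif TGANTCA or the NFAT core GGAAA.
Cldn1 promoter, chr16:26371790-26372089, minus strand: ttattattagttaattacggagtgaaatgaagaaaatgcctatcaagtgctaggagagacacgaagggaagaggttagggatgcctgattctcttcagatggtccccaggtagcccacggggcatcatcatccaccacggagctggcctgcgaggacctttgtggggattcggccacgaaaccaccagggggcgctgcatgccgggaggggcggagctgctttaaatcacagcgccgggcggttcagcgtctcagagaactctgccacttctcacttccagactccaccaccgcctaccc
Cldn4 promoter, chr5:134946885-134947184, minus strand: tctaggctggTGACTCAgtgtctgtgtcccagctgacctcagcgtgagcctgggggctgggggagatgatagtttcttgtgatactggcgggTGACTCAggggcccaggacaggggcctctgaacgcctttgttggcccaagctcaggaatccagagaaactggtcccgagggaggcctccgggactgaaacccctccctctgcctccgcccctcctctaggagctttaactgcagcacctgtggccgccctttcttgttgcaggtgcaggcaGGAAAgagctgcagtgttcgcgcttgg
F11r promoter, chr1:171437311-171437610, plus strand: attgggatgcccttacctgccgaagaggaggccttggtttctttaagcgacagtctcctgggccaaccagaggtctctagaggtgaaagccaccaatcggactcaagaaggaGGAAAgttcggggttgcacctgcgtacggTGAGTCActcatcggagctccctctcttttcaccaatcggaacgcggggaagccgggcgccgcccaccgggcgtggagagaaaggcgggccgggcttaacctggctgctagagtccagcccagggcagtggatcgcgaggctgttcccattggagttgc
The AP-1 letters occurred in 7.81% of all 32851 RefSeq promoter windows and in 2 of the 11 windows of the set. Cldn4 (2 matches) and F11r (1 match) were the genes of the set that held them. The NFAT core occurred in 61.3% of all windows and in 8 of the 11 windows of the set. Those 8 belonged to 6 of the 7 genes that had a window, some of which had more than 1, and Cldn1 held none. The grainyhead motif AACCNGTT, present in 2.09% of all windows, was in no window of the 7 genes. Matches are a description of letters and not of binding. Cldn8 and Cldn23 had no entry in the promoter table.

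None of the 3 tested tight junction genes passed the test of cKO against control. In edgeR's quasi-likelihood test, adjusted over all genes by the Benjamini-Hochberg method, 0 of 3 were called, where 0.848% of the 4243 genes tested were called in either direction (0.66% higher and 0.189% lower in cKO). At an unadjusted p under 0.05 the count was also 0 of 3, against 8.39% of all genes, and DESeq2 and limma-voom called 0 of 3. The 3 fitted changes were all negative, with a median log2 fold change of -0.49 (range -1.24 to -0.25) beside a median of 0.01 over all genes tested. The median was -0.24 without cKO replicate 1. Without control replicate 2 it was -0.21, but over the 4 genes of the set that then passed the filter. In that fit Cldn1 was at -0.57, Cldn4 at 0.15 and F11r at -1.42. The count filter picks genes by their level in these same libraries, whichever group these belong to, so these 3 genes do not stand for all 9.

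**Figure D1:**
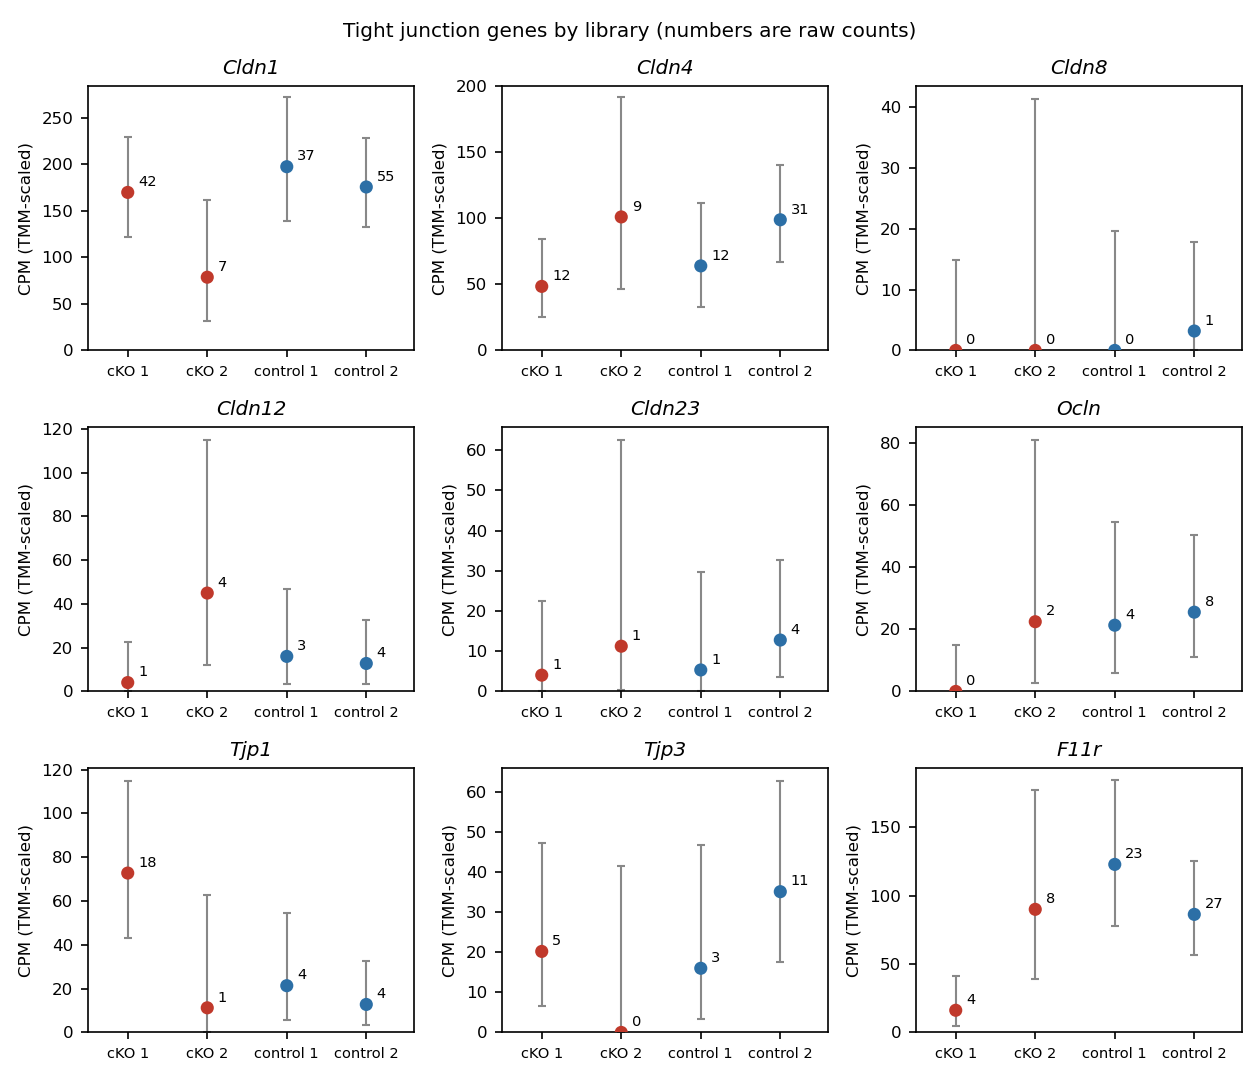
Level of each of the 9 tight junction genes in the 4 libraries, in TMM-scaled CPM (vertical axis, from 0, scale differing by panel); red points are cKO, blue points are control, bars are 95% exact Poisson intervals and the numbers are raw counts. Cldn1 has both cKO values below both control values, F11r is low in cKO replicate 1 alone and Tjp1 is high in cKO replicate 1 alone.

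Among the claudins, Cldn1 had the most counts. Cldn1 (ENSMUSG00000022512, chromosome 16, 26175392 to 26190591, minus strand) had 42 and 7 counts in cKO replicates 1 and 2 and 37 and 55 in control replicates 1 and 2, or 170 and 78.7 CPM against 197 and 176 CPM. Both cKO values lay below both control values, a pattern that 19.6% of all genes tested showed, but cKO replicate 1 lay close to control replicate 2. The cKO mean was 124 ± 64.5 CPM and the control mean 187 ± 15.4 CPM (SD, n = 2 each). The log2 fold change was -0.49 with a standard error of 0.49 and a 95% interval of -1.55 to 0.57 (edgeR adjusted p = 0.904). The estimate rested on cKO replicate 2, since it was -0.12 without that library and -1.28 without cKO replicate 1.

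Cldn4 encodes a claudin that is found, like Cldn1, in the epidermal barrier. Cldn4 (ENSMUSG00000047501, chromosome 5, 134973973 to 134975788, minus strand) had counts of 12 and 9 in the cKO libraries against 12 and 31 in the control libraries, or 48.5 and 101 CPM against 64.0 and 99.0 CPM. The groups overlapped fully, with the highest and the lowest value both in cKO. The fitted log2 fold change was -0.25 (standard error 0.64) and a 95% interval of -1.64 to 1.14 (edgeR adjusted p = 0.992). Its sign turned to 0.24 without cKO replicate 1 and to 0.15 without control replicate 2.

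The other 3 claudins of the set were near the limit of detection. Cldn12 (ENSMUSG00000046798, chromosome 5, 5539537 to 5564958, minus strand) had counts of 1 and 4 in the cKO libraries against 3 and 4 in the control libraries. Cldn23 (ENSMUSG00000055976, chromosome 8, 36291866 to 36293713, minus strand) had 1 count in both cKO libraries, and the control libraries had 1 and 4. Cldn8 (ENSMUSG00000050520, chromosome 16, 88357716 to 88360071, minus strand) had a single count, in control replicate 2, so no fold is given. Counts pooled by group and scaled to library size gave a cKO to control ratio of 1.06 for Cldn12 (95% exact interval 0.266 to 3.89) and 0.595 for Cldn23 (0.0567 to 3.64). These intervals reach from a fall to a rise, so no direction of change was shown for either gene at this depth. The fitted sign of Cldn12 turned to -1.69 without cKO replicate 2 from 0.36, and that of Cldn23 to 0.18 without cKO replicate 1 and 0.27 without control replicate 2 from -0.58. Of the 32 protein-coding claudin genes in the table, 24 had no count in any library, and the 3 with a count outside the set (Cldn3, Cldn10 and Cldn34c1) had at most 3 counts in any library.

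Ocln, which encodes occludin, was read in 3 of the 4 libraries. Ocln (ENSMUSG00000021638, chromosome 13, 100633015 to 100689226, minus strand) had counts of 0 and 2 in the cKO libraries against 4 and 8 in the control libraries, or 0 and 22.5 CPM against 21.3 and 25.5 CPM. The value of cKO replicate 2 lay between the control values. The pooled count ratio was 0.248 (95% exact interval 0.027 to 1.11), and in the fit to which Ocln was added its log2 fold change was -1.68 with a standard error of 1.67 (edgeR adjusted p = 0.906). The fitted value was -0.12 without cKO replicate 1, -5.59 without cKO replicate 2 and -2.68 with limma-voom. With library totals as the only scaling, both cKO values of Ocln (0 and 16.8 CPM) lay below both control values (20.0 and 24.8 CPM). The median log2 fold change of all genes tested was -0.24 with that scaling. The share of all genes with such a pattern was not counted there.

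F11r had the lowest fitted value of the 3 tested genes. F11r (ENSMUSG00000038235, chromosome 1, 171265103 to 171292171, plus strand) had counts of 4 and 8 in the cKO libraries against 23 and 27 in the control libraries, or 16.2 and 89.9 CPM against 123 and 86.2 CPM. The low level was in cKO replicate 1 alone, whose 95% Poisson interval (4.41 to 41.4 CPM) lay below the intervals of both control libraries (56.8 to 125 CPM for control replicate 2), while cKO replicate 2 lay between them. The cKO mean was 53.0 ± 52.1 CPM and the control mean 104 ± 25.8 CPM (SD, n = 2 each). The fitted log2 fold change was -1.24 (standard error 0.77) and a 95% interval of -2.90 to 0.43 (edgeR adjusted p = 0.755). It was -0.24 when cKO replicate 1 was left out and -2.63 when cKO replicate 2 was, where the adjusted p of 0.104 was the lowest of any of the 9 genes under any alternative. With library totals as the only scaling the F11r groups did not overlap (14.2 and 67.3 CPM in cKO, 115 and 83.7 CPM in control). On that scale the median log2 fold change of all genes tested was -0.24. The share of all genes without overlap was not counted there.

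F11r is also made by leukocytes, and the summed levels of immune cell markers varied between libraries. The summed level of 5 Langerhans cell markers (Cd207, Cd74, H2-Aa, H2-Ab1 and H2-Eb1, none of them at 0) was 1035 and 2899 CPM in cKO replicates 1 and 2 and 3762 and 2072 CPM in control replicates 1 and 2. On the TMM scale the 4 libraries fall in the same order by this sum as by F11r, a likeness singled out after the values were seen. With library totals F11r was 67.3 CPM in cKO replicate 2 and 83.7 CPM in control replicate 2, the reverse of its TMM order. The part of immune cells in the F11r values was not tested. Summed levels of 6 T cell markers, none at 0, were 239 and 180 CPM in cKO and 331 and 246 CPM in control.

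Of the scaffold genes, Tjp1 stood apart in 1 library. Tjp1 (ENSMUSG00000030516, chromosome 7, 64945913 to 65177529, minus strand), which encodes ZO-1, had counts of 18 and 1 in the cKO libraries against 4 in each control library, or 72.8 and 11.2 CPM against 21.3 and 12.8 CPM. The highest and the lowest value of Tjp1 were both in cKO. In the fit to which it was added its log2 fold change was 1.5 with a standard error of 1.06 (edgeR adjusted p = 0.812), and it turned to -0.58 without cKO replicate 1. Tjp3 (ENSMUSG00000034917, chromosome 10, 81109041 to 81127415, minus strand), which encodes ZO-3, had counts of 5 and 0 in the cKO libraries against 3 and 11 in the control libraries, or 20.2 and 0 CPM against 16.0 and 35.1 CPM. Its groups overlapped, and its log2 fold change was -0.96 with a standard error of 1.31 (edgeR adjusted p = 0.962). It became -0.37 without cKO replicate 2, -0.30 without control replicate 2 and -5.41 without cKO replicate 1.

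Levels of the 9 genes relative to each other are given per kilobase of exon length. In control, Cldn4 (44.9 ± 13.6 CPM per kb, SD, n = 2), F11r (39.2 ± 9.69) and Cldn1 (38.5 ± 3.18) were highest and differed from each other by less than the sum of their SDs. A gap larger than the SDs separated Cldn1 from Tjp3 (6.88 ± 3.64 CPM per kb). Ocln, Cldn23, Cldn12, Tjp1 and Cldn8 followed in that order, down to 0.678 CPM per kb, and no neighbouring pair among these low genes differed by more than the sum of its SDs. The kit reads the 3' end of transcripts, so counts need not grow with length. On the CPM scale without length, the same 3 genes were highest in control, in the order Cldn1, F11r and Cldn4.

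Pooling the counts gave values that were closer within a group. In cKO replicate 1 the 9 genes together made up 0.0294% of the library (95% Wilson interval 0.0237% to 0.0365%), and in cKO replicate 2 they made up 0.0269% (0.0191% to 0.038%). Control replicate 1 had 0.0434% (0.0352% to 0.0536%), and control replicate 2 had 0.045% (0.0382% to 0.0529%). Both cKO shares lay below both control shares, although the intervals of both cKO libraries overlapped that of control replicate 1; neither reached that of control replicate 2. The ratio of the mean shares, cKO over control, was 0.637, and it lay between 0.609 and 0.665 when each library was left out in turn. On the TMM scale the 9 genes summed to 336 and 360 CPM in cKO and 464 and 463 CPM in control, a ratio of 0.750. The difference between the scales follows from the scaling itself, since with library totals the median log2 fold change of all genes tested was -0.24 instead of 0.01. No p-value is given for these sums, because the genes were chosen with results known.

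**Figure D2:**
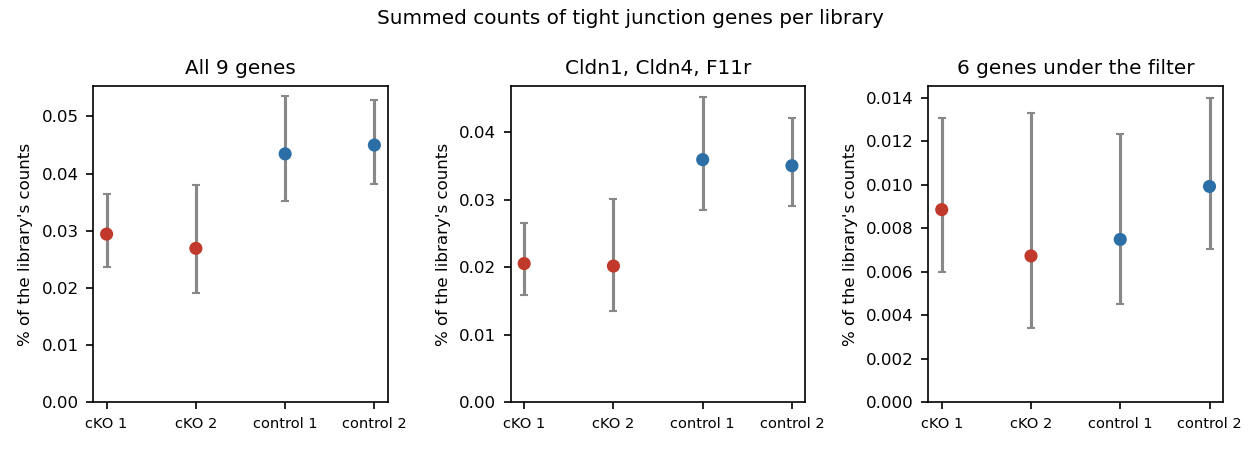
Share of each library's counts, in percent (vertical axes from 0), taken by all 9 tight junction genes, by Cldn1, Cldn4 and F11r, and by the 6 genes under the count filter; red is cKO, blue is control, and bars are 95% Wilson intervals. The cKO points lie below the control points in the first 2 panels, and the groups overlap in the last.

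The sum was also split by the count filter, as a description only, since the filter picks genes by their level in these same libraries. Cldn1, Cldn4 and F11r together made up 0.0206% and 0.0202% of the cKO libraries and 0.0359% and 0.035% of the control libraries. The ratio of their mean shares was 0.574 with library totals and 0.677 on the TMM scale. The 6 genes under the count filter had counts of 25 and 8 in the cKO libraries against 15 and 32 in the control libraries, or 101 and 89.9 CPM against 80.0 and 102 CPM. Their groups overlapped. The ratio of their mean shares was 0.895 with library totals (0.773 to 1.04 when each library was left out in turn) and 1.05 on the TMM scale (95% exact interval of the pooled count ratio 0.649 to 1.67), so its side of 1 depended on the scaling. Of the 25 counts of this sum in cKO replicate 1, 18 were from Tjp1. The 5 claudins alone summed to 226 and 236 CPM in cKO and 283 and 303 CPM in control, a pooled count ratio of 0.774 (95% exact interval 0.580 to 1.03). The pooled count ratio was 0.738 (0.585 to 0.927) for all 9 genes and 0.660 (0.502 to 0.860) for Cldn1, Cldn4 and F11r. These intervals cover counting error only, for genes chosen with results known, and are no test of genotype.

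Summed marker levels of several cell types differed between the libraries. The summed level of 10 granular layer markers, none of them at 0, was 22130 and 12913 CPM in cKO and 2049 and 9679 CPM in control, and 3 of the 10 were called higher, against 0.66% of all genes tested. Basal markers (7 genes, none at 0) summed to 9041 and 6249 CPM in cKO and 6041 and 4928 CPM in control, with 0 called. Skeletal muscle markers (9 genes, none at 0) summed to 44.5 and 135 CPM in cKO and 1425 and 996 CPM in control, and 4 of the 6 tested were called lower, against 0.189% of all genes tested. Sebaceous markers (7 genes, none at 0) summed to 1068 and 2001 CPM in cKO and 1030 and 936 CPM in control. Fibroblast markers (6 genes, Pdgfra at 0) were highest in cKO replicate 2, at 607 CPM, and lay between 36.4 and 160 CPM in the other libraries. The sum of 10 hair follicle markers (Krt27 and Krt73 at 0) was 1496 and 1708 CPM in cKO and 2113 and 2552 CPM in control. The part of these cells in the tight junction sums was not tested.

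The wider tight junction list, 53 further genes of strands, scaffolds and polarity complexes, gave 30 genes with a count and 11 that were tested. Of these 0 were called in either direction by edgeR, DESeq2 or limma-voom; at an unadjusted p under 0.05, 1 was lower, against 4.17% of all genes tested, and 0 were higher. The median log2 fold change was 0.12, with 6 of 11 positive, beside 0.01 over all genes tested.

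Lsr, which encodes angulin-1 of tricellular contacts, was that lower gene. Lsr had counts of 29 and 9 in the cKO libraries against 38 and 109 in the control libraries, or 117 and 101 CPM against 203 and 348 CPM. Both cKO values lay below both control values, a pattern that 19.6% of all genes tested showed. The log2 fold change of -1.32 (standard error 0.48) did not pass the adjustment (edgeR adjusted p = 0.417, unadjusted p = 0.0167). It became -0.85 without control replicate 2.

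None of the other genes named from this list passed the test. Pals1, a scaffold of the Crumbs complex, had counts of 10 and 0 in the cKO libraries against 14 and 30 in the control libraries, with a log2 fold change of -1.68 (edgeR adjusted p = 0.648) that was -1.07 without cKO replicate 2 and -7.10 without cKO replicate 1. Pard6g, a subunit of the Par polarity complex, had counts of 42 and 9 in the cKO libraries against 7 and 27 in the control libraries, with a log2 fold change of 1.13 (edgeR adjusted p = 0.671) that was 0.61 without cKO replicate 1 and 1.90 without control replicate 2. Its partner Pard3 was at 210 and 146 CPM in cKO and 133 and 166 CPM in control. Cxadr, an adhesion molecule of the immunoglobulin family like F11r, had 602 and 652 CPM in cKO and 475 and 508 CPM in control, a log2 fold change of 0.35 (edgeR adjusted p = 0.936). Ybx3, a Y-box factor that binds ZO-1, was at 1011 and 472 CPM in cKO and 438 and 942 CPM in control, and Amotl1, an angiomotin family scaffold, at 146 and 157 CPM against 128 and 227 CPM; both groups overlapped.

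**Figure D3:**
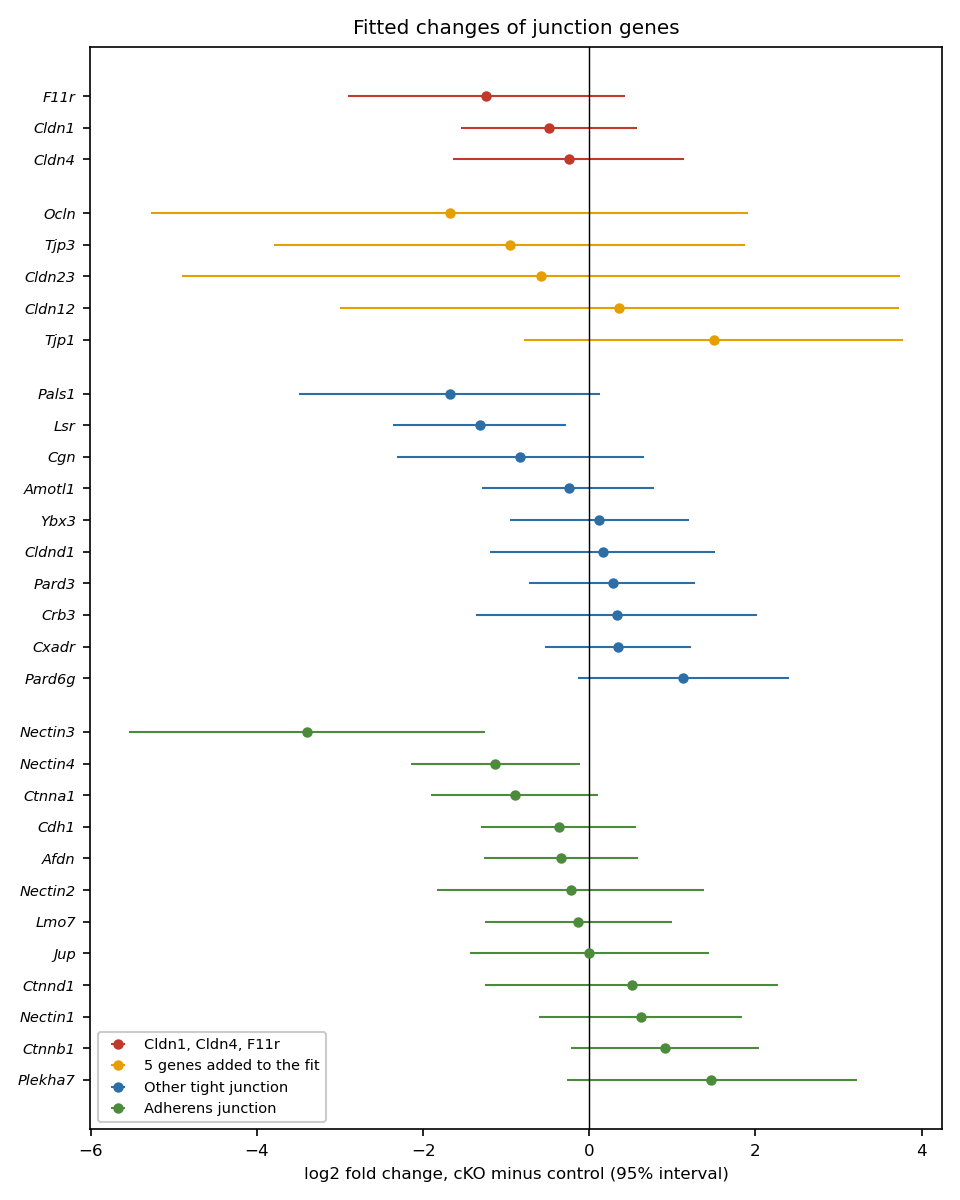
Fitted log2 fold change, cKO minus control, with 95% interval (horizontal axis) for Cldn1, Cldn4 and F11r, for the 5 genes added to the fit, for 10 other tight junction genes and for 12 adherens junction genes. The intervals of all 8 plotted genes of the set include 0, and those of Lsr, Nectin3 and Nectin4 do not.

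The adherens junction, which holds keratinocytes together beside the tight junction, gave a like count. Of 16 genes 12 were tested and 0 were called by edgeR, DESeq2 or limma-voom; at an unadjusted p under 0.05, 2 were lower, against 4.17% of all genes tested, and 0 higher. The median log2 fold change was -0.18. Cdh1, the E-cadherin gene, lay at 400 and 584 CPM in cKO and 720 and 543 CPM in control, and Afdn, which encodes the nectin-binding scaffold afadin, at 388 and 562 CPM against 512 and 674 CPM. Nectin4 was at 279 and 157 CPM in cKO and 363 and 616 CPM in control, a log2 fold change of -1.13 (edgeR adjusted p = 0.500) that was -0.67 without control replicate 2. Nectin3 had counts of 3 and 0 in the cKO libraries against 9 and 43 in the control libraries, a pooled count ratio of 0.0859 (95% exact interval 0.0172 to 0.265), and was not called (edgeR adjusted p = 0.197). It passed the threshold without cKO replicate 1 (edgeR adjusted p = 0.0438) and without control replicate 1 (0.0357). Plekha7, an adherens junction scaffold, had counts of 12 and 10 in the cKO libraries against 6 and 7 in the control libraries, a log2 fold change of 1.47 (edgeR adjusted p = 0.709) that was 0.86 without cKO replicate 2.

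**Figure D4:**
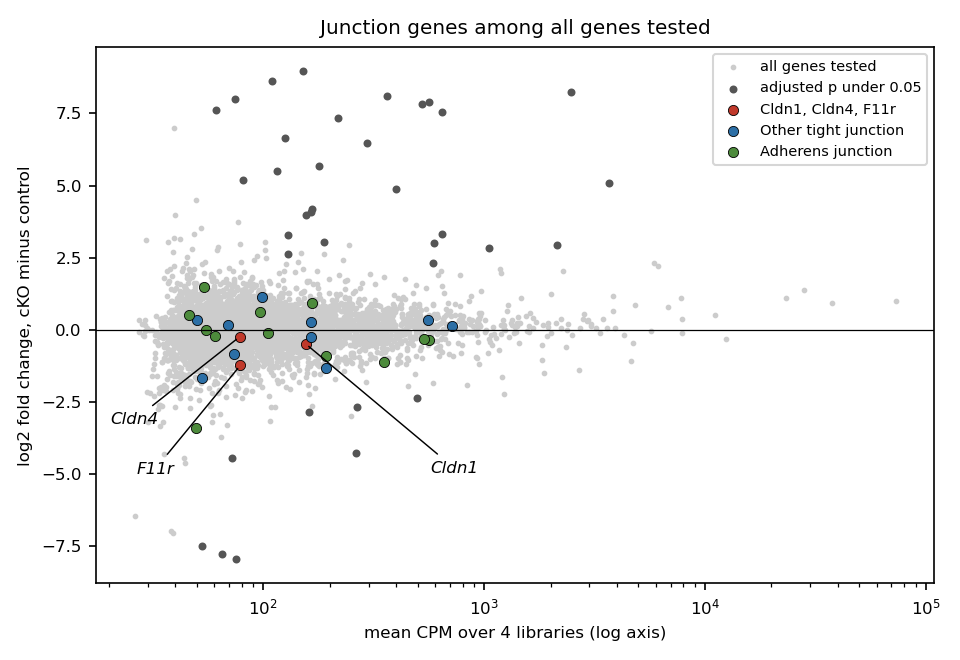
Log2 fold change, cKO minus control (vertical axis), against mean CPM over the 4 libraries (log axis) for all 4243 genes tested, with called genes in dark grey and junction genes in colour. Cldn1, Cldn4 and F11r lie within the grey cloud of genes of like level, between -1.24 and -0.25.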

How the data were processed

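The authors deposited 1 table of raw counts per gene for 4 libraries, with exon positions and lengths per the file headers. Libraries were made with the QIAseq UPX 3' kit and converted for MGI sequencing, per the labels' protocols. Trim Galore 0.6.7, Trimmomatic 0.39, cutadapt 3.7, STAR 2.7.10a, featureCounts 2.0.1 and GRCm39 are named in the submitters' processing notes. The use of strand, molecular identifiers and multi-mapped reads is not given in the sources used here.

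Counts were analysed in edgeR 4.0.16 (R 4.3.3) with genotype as the only term: filterByExpr (minimum count 10, minimum total 15) kept 4243 genes holding 87.6% of counts, library sizes were summed over these genes and scaled by TMM (factors 0.833 to 1.12), and glmQLFit and glmQLFTest were run at their defaults, with Benjamini-Hochberg adjustment over all genes and a threshold of 0.05. Standard errors were derived from the size of the log2 fold change and the F statistic. Genes under the filter were added to a second fit. Pooled count ratios have exact conditional intervals from the summed counts. The fit was tested on simulated data. Alternatives were other scalings, filters, tools (DESeq2 1.42.0, limma-voom 3.58.1), fit options, a replicate block and each library left out. Named genes beside the 9 and the Stim genes were called genes, the 6 (tight junction) or 3 (adherens junction) with the highest mean CPM and the 3 or 2 with the largest absolute change at a mean of at least 10 CPM; 1 gene that this rule names is not reported here. The members and lists were chosen with earlier results of these data known.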

Additional observations from a re-analysis of the deposited data

How the results depend on the processing

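None of the 9 tight junction genes passed the adjusted threshold under those of the 16 alternatives that gave it a value, and their lowest adjusted p was 0.104 (F11r without cKO replicate 2). Depth limits every value: 6 of the 9 genes were under the count filter. Cldn8 and Cldn23 had no value with a mean of 10 CPM or more required, and Cldn8 had none without control replicate 2.

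Over all genes, 28 were called higher and 8 lower (77.8% higher). The higher count was 49 without a count filter, 16 with the replicate number as a block, 12 with limma-voom and 90 with crossed replicate numbers, a pairing chosen after seeing the data. The lower count was 15 with library totals (63.4% of calls then higher), 26 without a count filter (65.3% higher), 15 when a mean of 10 CPM or more was required, 1 with the replicate block (94.1% higher), 3 with limma-voom and 57 with the crossed block (61.2% higher). Leaving out 1 library each gave 34 to 59 higher and 8 to 34 lower. The numbers are not stated to pair the samples, and the correlation of the within-group differences between the groups was -0.200; the block called 0 of the tight and adherens junction genes, and the crossed block called 1 lower adherens gene, Nectin3 (-3.67).

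Leaving out 1 library each, the median of the other tight junction genes went from -0.33 to 0.41, and that of the adherens junction genes from -0.26 to 0.08, with 0 to 1 of the latter called lower. The adherens median was -0.43 with library totals. It was 0 when a mean of 10 CPM or more was required, but over 16 genes, against 12 in the main fit. The leave-one-out medians of both lists were over 11 to 13 genes. The ratio of pooled shares of all 9 genes was 0.637 with library totals, 0.750 with TMM, 0.712 without the 20 most abundant genes and 0.753 with DESeq2 size factors (chosen after seeing the data). In the same order it was 0.671, 0.789, 0.749 and 0.792 for the claudins and 0.574, 0.677, 0.642 and 0.679 for Cldn1, Cldn4 and F11r, and 0.895, 1.05, 0.997 and 1.05 for the 6 genes under the filter, whose direction thus turned. The log2 fold change of Cldn12 was -0.74 with limma-voom. That of Ybx3 (0.12) turned to -0.11 with library totals. Leaving out 1 library each, Cldn4 ranged from -0.76 to 0.24, Cldn12 from -1.69 to 1.57, Cldn23 from -1.13 to 0.27, Tjp1 from -0.58 to 2.12, Ybx3 from -0.60 to 0.80, Amotl1 from -0.59 to 0.25 and Pard3 from -0.09 to 0.49. The cause was not tested.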
